A study of Mus musculus with 15 samples.

Results

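The response of the C57BL/6 (B6) colon (C57BL/6J mice in the study's methods) to combined azoxymethane and dextran sodium sulfate (AOM/DSS) was described from 6 of the 15 RNA-seq libraries of the series. These were the colons of 3 wild-type B6 mice at D26 of the treatment and of 3 untreated wild-type B6 mice, the control set that had been tabulated with them (control set 1). Treatment began on D1 with an injection of AOM, a carcinogen that alkylates DNA in the colon, at a dose of 7 mg/kg. From D8 to D11 the drinking water held 2% DSS, a sulfated sugar polymer toxic to the lining of the colon. The untreated mice received neither agent. Whole distal colon was sequenced, so each library held mucosa and wall together, and the sex of the mice was not given. Mice entered the AOM/DSS model as young adults, per the study's methods. All 12643 genes of the table were tested, and every count below is over all of them or over a list of genes of known role. Another 3 untreated B6 colons (control set 2) and 6 Irf1-/- colons, 3 of them treated, served for comparison.

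The colonic lining is a single layer of absorptive cells and mucus-secreting goblet cells that is renewed from stem cells at the base of the crypts. DSS strips this layer and exposes the tissue beneath to bacteria, which calls in neutrophils and monocytes and induces interferons and antimicrobial proteins. Epithelial cells at the wound edge spread, switch on repair genes and then rebuild crypts, and in the presence of a mutagen this repair can end in tumors.

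Depth was alike in all 6 libraries, with 22407162 to 22828066 reads counted on the tested genes. Genes that define the colon were counted in every library. Muc2 and Slc26a3, the main gel-forming mucin and the chloride-bicarbonate exchanger of surface cells, had 984 and 577 CPM or more (read counts scaled to library size after edgeR's TMM factors, the level used throughout). Some measures separated libraries in ways that touch the results below. Treated libraries gained counts with the GC content of a gene, by 0.20, 0.14 and 0.29 log2 units per 10% GC, whereas untreated ones had slopes of -0.05, 0.01 and -0.13. Xist, the RNA that coats an inactive X chromosome, had 33667, 7288 and 60792 reads in untreated but 573, 134 and 53220 reads in treated colons, and the Y-linked genes searched for were not analysed here. The sexes may have been mixed differently in the groups, and sex could be told apart from treatment only in part, in a fit with Xist as covariate. Genes of stratified squamous epithelium, such as Krt13 (106, 65.0 and 128 CPM untreated, 119.9, 183 and 161 CPM treated), and of skeletal muscle, such as Acta1, were also counted in all 6 libraries. Distal colon ends at the anal canal, whose lining is squamous, and how much of it each sample held was not given. For these reasons the calls of the gene groups are also given after a correction of each library for GC content, and medians with control set 2 or without 1 mouse where they turned or moved most.

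At D26, 499 genes were upregulated and 571 downregulated in treated B6 colons at an adjusted p under 0.05 (quasi-likelihood test of edgeR, Benjamini-Hochberg adjusted). This was 3.95% and 4.52% of the genes tested, and it is the background for the counts of gene groups below. The lists and their members were chosen with earlier results of these data known, so their shares are descriptions and not independent tests. Some genes, such as Psmb8, Ang4, Ltf and Wnt5a, were shared between lists and are counted in each. Most changes were small, since 222 of the upregulated and 208 of the downregulated genes differed by at least 1.5-fold and 78 and 40 by at least 2-fold. The median log2 FC over all genes was 0.01. Among upregulated genes 498 had all treated above all untreated libraries, and all 571 downregulated genes had them below. Over all 12643 genes, 2176 had all treated above and 2190 all treated below all untreated libraries. Such separation was thus common, and among called genes it adds little to the test. At the study's threshold (FC of 1.5 or more and adjusted p below 0.01) 4 genes (0.0316%) were upregulated and 2 (0.0158%) downregulated. This count depended on the test, as edgeR's exact test called 245 and 215 genes at the same threshold and limma voom called 0 and 0, with 3730 genes at an unadjusted p under 0.05 in the quasi-likelihood test. Leaving out 1 mouse at a time moved the counts at an adjusted p under 0.05 between 9 (without untreated colon 3) and 850 (without treated colon 1) upregulated genes. With Xist as a covariate 10 genes were upregulated and 6 downregulated. The counts of downregulated genes without 1 mouse ran from 7 (without untreated colon 3) to 737 (without treated colon 2). The GC correction left 72 (0.569%) upregulated and 37 (0.293%) downregulated genes, of which 64 and 35 were among those called without it. All 499 upregulated genes kept a positive log2 FC, and 559 of the 571 downregulated genes kept a negative one. With control set 2, a comparison that shares the treated colons, 901 (7.26%) and 939 (7.56%) of 12417 genes were called. These held 271 of the 499 upregulated and 366 of the 571 downregulated genes, some of which were not among the 12417.

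**Figure D1:**
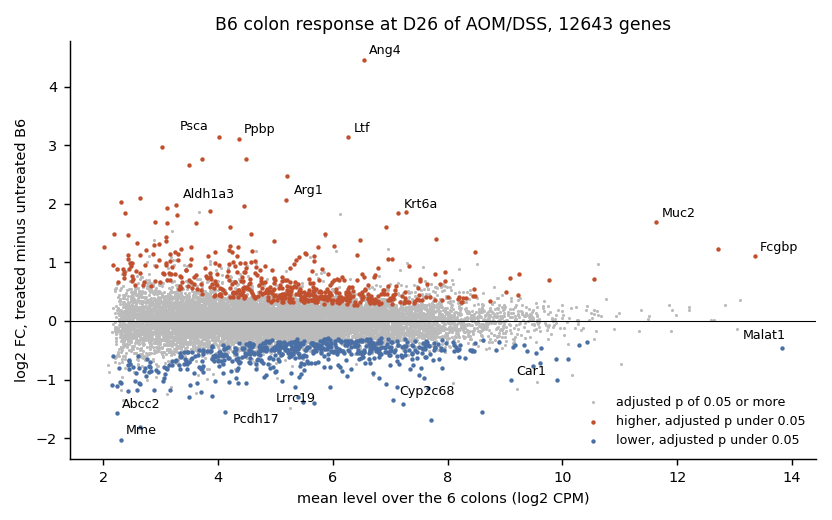
Log2 FC of treated over untreated B6 colons (y axis) against the mean level over the 6 colons (x axis, log2 CPM), 1 point per gene and 12643 in all. Red points are the 499 upregulated and blue points the 571 downregulated genes at an adjusted p under 0.05, and the largest increases, such as Ang4 and Ltf, exceed the largest decreases in size.

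The 6 genes past the study's threshold were Ltf, Psca, Duoxa2 and Cst6, which rose, and Lrrc19 and OTTMUSG00000016609, which fell. Ltf, the iron-binding antimicrobial protein lactoferrin of neutrophil granules and mucosal secretions, had 10.6, 20.03 and 16.3 CPM in untreated and 111, 200.3 and 103 CPM in treated colons. This was a log2 FC of 3.14 ± 0.30 (standard error of the fit with 3 colons per group, as after every log2 FC below) with an adjusted p of 0.00685. The lowest treated colon stood far above the highest untreated one. Psca, a small glycolipid-anchored surface protein of epithelia, had 2.32, 3.38 and 4.20 CPM in untreated and 27.5, 38.7 and 20.9 CPM in treated colons (3.14 ± 0.27, adjusted p = 0.00685). Duoxa2, the factor that brings the epithelial oxidase Duox2 to the cell surface, had 9.08, 8.68 and 9.82 CPM in untreated and 23.5, 34.1 and 26.0 CPM in treated colons (1.60 ± 0.15, 0.00685). Treated and untreated colons lay far apart for both, and treated colon 2 was the highest of each. Cst6, an inhibitor of lysosomal cysteine proteases, had 26.0, 29.2 and 25.7 CPM in untreated and 49.5, 59.3 and 63.6 CPM in treated colons (1.09 ± 0.11, 0.00796), but only 0.37 against control set 2 (adjusted p = 0.315). Lrrc19, a leucine-rich-repeat receptor of the kidney and gut epithelium, had 80.6, 89.6 and 84.9 CPM in untreated and 38.1, 43.2 and 35.4 CPM in treated colons (-1.13 ± 0.09, 0.00685), and was lower against control set 2 as well (-1.08). OTTMUSG00000016609, a gene model without a described product, had 60.9, 59.9 and 71.7 CPM in untreated and 22.7, 29.2 and 21.7 CPM in treated colons (-1.39 ± 0.13, 0.00685). All 6 genes kept an adjusted p under 0.05 whichever of the 6 mice was left out.

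The largest increases at an adjusted p under 0.05, beside Ltf and Psca, were spread over secreted defence proteins, surface proteins and enzymes. Ang4, an antimicrobial ribonuclease of goblet and Paneth cells, had 17.0, 3.24 and 3.98 CPM in untreated and 53.6, 347 and 132 CPM in treated colons (4.46 ± 0.79, adjusted p = 0.0206). The treated colons differed severalfold among themselves, and against control set 2 the log2 FC was 0.64 (adjusted p = 0.593), so the size of the increase depended on the control set. Ppbp, a chemokine precursor of platelets that attracts neutrophils, had 2.24, 6.88 and 3.63 CPM in untreated and 24.5, 65.1 and 20.7 CPM in treated colons (3.11 ± 0.51, 0.0194). Calcb, a neuropeptide of the calcitonin gene-related family, rose by 2.97 ± 0.47 and Apol10a, an apolipoprotein L, by 2.77 ± 0.66. 1600029D21Rik (named Plet1 in RefSeq), a surface protein of epithelial progenitors, had 3.51, 2.28 and 4.38 CPM in untreated and 13.0, 39.7 and 16.2 CPM in treated colons (2.76 ± 0.43, 0.0185). Dhrs9, a dehydrogenase of retinol and steroids, rose by 2.66 ± 0.58, AI747448 (Clca4b in RefSeq), a calcium-activated chloride channel regulator, by 2.48 ± 0.38, and the serine protease gene Prss27 by 2.03 ± 0.34. Arg1, the arginase of alternatively activated macrophages, had 15.2, 13.2 and 13.8 CPM in untreated and 49.1, 83.0 and 44.8 CPM in treated colons (2.07 ± 0.22, 0.0115), so that its untreated colons were nearly equal and all treated colons lay far above them. Fer1l4, a ferlin relative, completed the 12 largest increases (2.11 ± 0.37). Psca, Calcb, 1600029D21Rik, Dhrs9, Fer1l4 and Prss27 had 5 CPM or more in treated colons only. They passed the limit of 5 CPM in at least 3 libraries through these alone, so their separation is not added evidence. Psca, Ppbp, Calcb, Apol10a, Fer1l4 and Prss27 were not among the genes tested with control set 2.

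The 12 largest decreases were led by Mme, the cell-surface peptidase neprilysin, with 5.92, 10.7 and 7.03 CPM in untreated and 2.59, 0.801 and 2.42 CPM in treated colons (-2.02 ± 0.38, adjusted p = 0.0228). Abcc2, an apical exporter of conjugated drugs and bilirubin, had 5.17, 8.33 and 7.56 CPM in untreated and 2.11, 1.47 and 3.48 CPM in treated colons (-1.58 ± 0.31, 0.0247), and Pcdh17, a protocadherin, 21.5, 30.2 and 26.7 CPM in untreated and 9.48, 6.45 and 10.6 CPM in treated colons (-1.56 ± 0.20, 0.0122). In none of these did a treated colon reach the lowest untreated one, as the rule for the largest changes required. The same was so for all 571 downregulated genes. Mme and Abcc2 had 5 CPM or more in untreated colons only. They passed the limit of 5 CPM in at least 3 libraries through these alone, so their separation is not added evidence. Neither was among the genes tested with control set 2. Cyp2c68, a drug- and fatty-acid-oxidising cytochrome P450, fell by 1.35 ± 0.16, Nxpe4 by 1.41 ± 0.33 and Fut9, which adds fucose to surface glycans, by 1.29 ± 0.21. The others were OTTMUSG00000016609, Zfp808 (-1.30 ± 0.19) and the gene models Gm13212, Gm8979, Gm8989 and Gm20594 (log2 FC -1.81, -1.69, -1.55 and -1.40). Gm8979 and Gm8989 are annotated as transcribed pseudogenes in RefSeq, Zfp808 and Gm13212 have close relatives, so the assignment of their reads is uncertain.

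**Figure D2:**
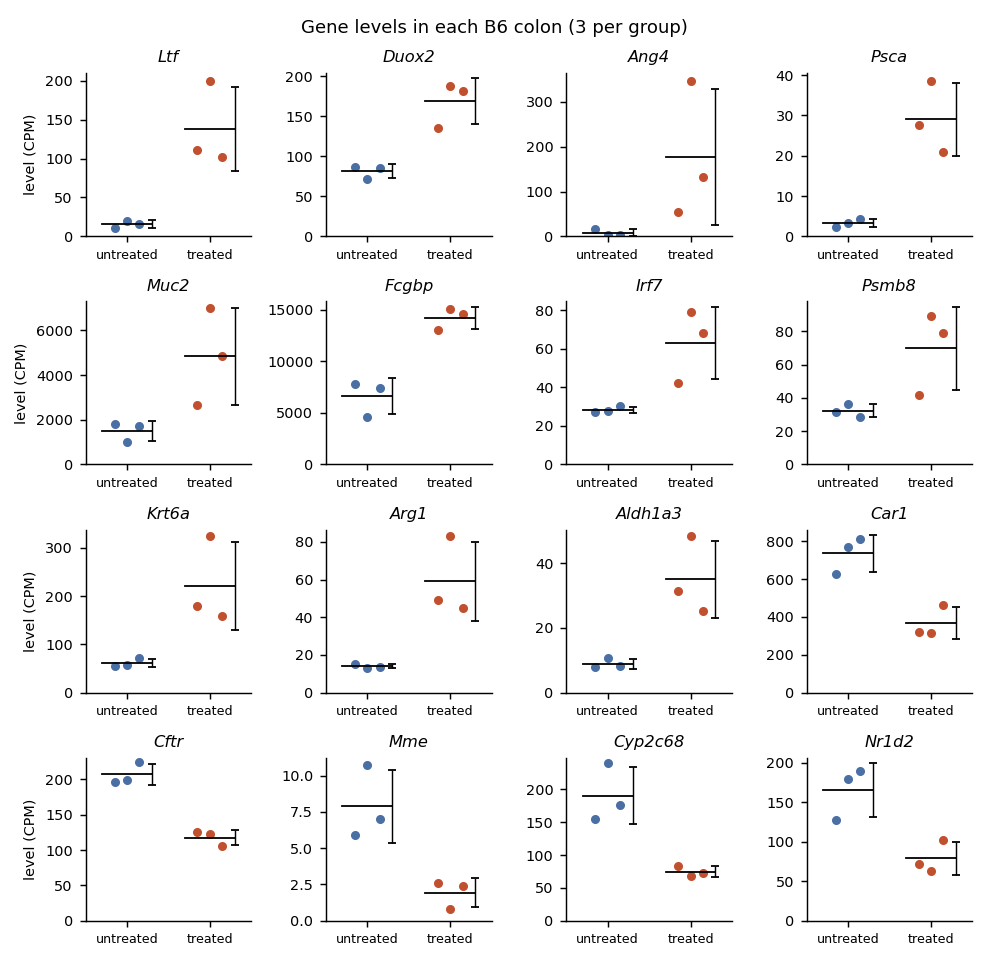
Level (CPM, linear axis from 0) of 16 genes in each untreated (blue) and treated (red) B6 colon, 3 per group and in replicate order within a group, with the mean (line) and SD (bar). Groups do not overlap for any of the 16 genes, which the rule that named Ltf, Ang4, Psca, Arg1, Mme and Cyp2c68 required. The spread among treated colons is widest for genes such as Ang4, Muc2 and Krt6a, where treated colon 2 is the highest.

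Mucosal defence genes were called upward and not downward. Of 25 tested genes for antimicrobial proteins and mucosal oxidases, 7 were upregulated (28.0%, against 3.95% of all genes) and 0 downregulated, with a median log2 FC of 0.37 (0.30 after GC correction, when 4 were called). Along with Ltf, Ang4 and Duoxa2 these were Duox2, Duox1, Noxa1 and Slpi. Duox2, the oxidase that releases hydrogen peroxide at the apical surface, had 87.3, 71.4 and 85.6 CPM in untreated and 136, 189 and 182 CPM in treated colons (1.05 ± 0.14, adjusted p = 0.0129). Its relative Duox1 rose by 0.96 ± 0.16, and Noxa1, an activator of the epithelial oxidase Nox1, by 0.46 ± 0.08 but with 0.11 against control set 2 (adjusted p = 0.456). Slpi, a secreted protease inhibitor, rose by 0.68 ± 0.14. The genes Zg16, Lyz2 and Pglyrp1, for a mucus lectin, lysozyme and a peptidoglycan-binding protein, had log2 FC of 0.37, 0.45 and 0.34 and were not called. Another 15 genes of the list, among them S100a8, S100a9, Reg3b, Reg3g and Lcn2, which are typical of acute colitis, were not analysed here, since the table was limited to genes with 5 CPM in at least 3 libraries.

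Goblet cell genes called upward included mucus proteins, enzymes that fold and glycosylate them and the transcription factors of the lineage. Of 29 tested, 10 were upregulated (34.5%) and 0 downregulated, 27 had a log2 FC above 0, and the list's median was 0.49 (0.41 after GC correction, when 4 were called, and 0.32 with control set 2). Muc2 had 1821, 984 and 1715 CPM in untreated and 2667, 6994 and 4853 CPM in treated colons (1.68 ± 0.34, adjusted p = 0.0255). Its lowest treated colon was 1 and its highest 2, and untreated colon 2 was the lowest of all. The same untreated colon was lowest for Clca3 (Clca1 in RefSeq), a secreted mucus protein, with 4809, 2489 and 4791 CPM in untreated and 8775, 9840 and 9700 CPM in treated colons (1.23 ± 0.22, 0.0215), and for Fcgbp, a large protein that cross-links in mucus, with 7843, 4608 and 7384 CPM in untreated and 13040, 15040 and 14590 CPM in treated colons (1.11 ± 0.18, 0.0194). Spink4, a secreted protease inhibitor of goblet cells, rose by 1.39 ± 0.27 and Agr2, the disulfide isomerase needed to fold Muc2, by 0.80 ± 0.20. Atoh1, which commits cells to the secretory fate, had 51.4, 49.5 and 50.6 CPM in untreated and 69.6, 66.2 and 76.7 CPM in treated colons (0.49 ± 0.08, 0.0195). Spdef, which drives goblet maturation, rose by 0.97 ± 0.22, and Creb3l4, a membrane-bound transcription factor of secretory cells, by 0.64 ± 0.09. Galnt12, an enzyme that starts the sugar chains of mucins, rose by 0.69 ± 0.13. In a bulk sample, more goblet cells and more RNA per goblet cell cannot be told apart, and the same holds for every cell type below. Against control set 2 the increases were smaller, 0.48 for Fcgbp and 1.01 for Muc2, and Agr2 was not called (0.18, adjusted p = 0.53).

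**Figure D3:**
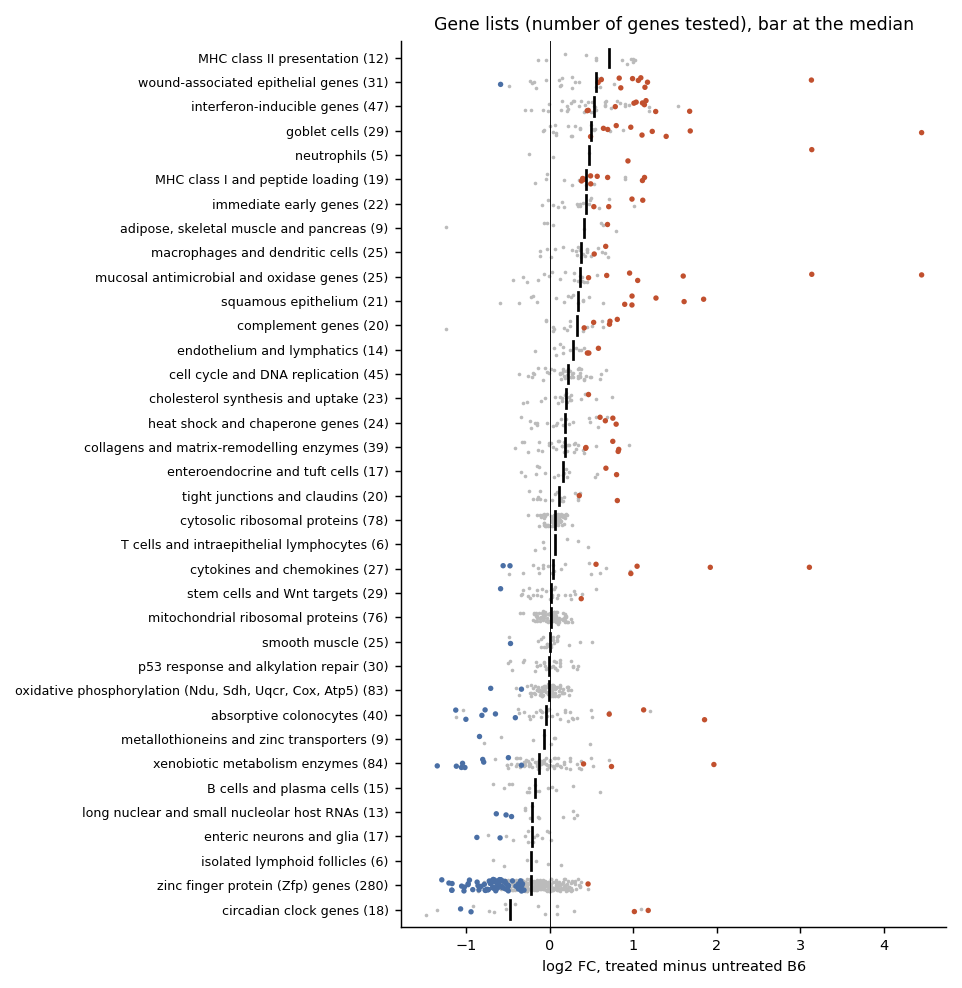
Log2 FC of treated over untreated B6 colons (x axis) for the tested genes of each list with at least 5 of them (y axis, number tested in brackets). Red and blue points passed an adjusted p of 0.05 upward and downward, grey points did not, and the black bar is the list's median, highest for MHC class II at 0.71 and lowest for the clock genes at -0.47 (0.25 with control set 2).

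Interferon-inducible genes were called upward in part, and their summed level was highest in treated colons 2 and 3. Interferons act through STAT and IRF transcription factors on genes whose promoters carry interferon-stimulated response elements. Of 47 such genes tested, 10 were upregulated (21.3%) and 0 downregulated, 42 had a log2 FC above 0, and the list's median was 0.53 (0.60 after GC correction and 0.53 with control set 2). After GC correction 2 of the 47 were called. To show what was searched for, the 250 bases before the annotated start were scanned in RefSeq promoters (build GRCm38.p6, which is not the build of the counts) for GAAANNGAAA on both strands, a core of such elements. Of the list members 34 had a promoter entry, and 17 of these (50.0%) held it, as did 293 of 9335 tested genes with a promoter (3.14%) and 978 of all 32851 promoters (2.98%). Of the upregulated members with a promoter entry, 2 of 7 (28.6%) of this list and 1 of 9 (11.1%) of the MHC class I list below held it. All 3 held it in the last 150 bases before the start. These stretches are printed 5′ to 3′ on the gene's strand with the match in capitals, which starts 120 bases before the start in Rsad2 (chr12:26456453-26456602, minus strand), 20 in Oas1a (chr5:120907526-120907675, minus strand, where 2 matches overlap) and 124 in H2-T23 (chr17:36032702-36032851, minus strand):
Rsad2: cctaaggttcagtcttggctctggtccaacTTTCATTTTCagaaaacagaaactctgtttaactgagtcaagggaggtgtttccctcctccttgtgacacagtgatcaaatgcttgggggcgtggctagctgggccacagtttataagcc
Oas1a: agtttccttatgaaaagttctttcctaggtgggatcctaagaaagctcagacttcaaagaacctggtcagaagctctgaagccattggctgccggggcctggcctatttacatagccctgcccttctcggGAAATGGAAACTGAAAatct
H2-T23: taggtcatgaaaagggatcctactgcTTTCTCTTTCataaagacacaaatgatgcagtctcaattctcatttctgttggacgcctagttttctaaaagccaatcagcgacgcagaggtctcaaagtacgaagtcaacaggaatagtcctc
A match is a description of the sequence and not a bound site. The other called genes that had a promoter, such as Irf7, Oasl1 and Tap1, held no such letters in these 250 bases.

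Rsad2, the antiviral enzyme viperin, had 6.45, 6.09 and 6.72 CPM in untreated and 12.1, 14.5 and 12.9 CPM in treated colons (1.04 ± 0.14, adjusted p = 0.0140), and Oasl1, a sensor relative that binds double-stranded RNA, had 12.8, 10.9 and 14.3 CPM in untreated and 24.3, 24.9 and 27.3 CPM in treated colons (1.01 ± 0.12, 0.0122). In both, the 3 treated colons were close together at about 2 times the untreated ones. For Irf7, the transcription factor that amplifies type I interferon, the treated colons were spread, with 27.2, 27.8 and 30.2 CPM in untreated and 42.3, 79.0 and 68.1 CPM in treated colons (1.15 ± 0.20, 0.0198). Zbp1, a sensor of Z-form nucleic acids that can start necroptosis, had 5.52, 5.48 and 6.50 CPM in untreated and 10.3, 24.2 and 21.5 CPM in treated colons (1.68 ± 0.29, 0.0200), and Oasl2 13.2, 10.3 and 12.2 CPM in untreated and 15.02, 37.1 and 33.9 CPM in treated colons (1.27 ± 0.29, 0.0369). In each of these genes treated colon 1 was the lowest of the 3, and in Oasl2 it was close to the untreated colons. Oas1a rose by 0.46 ± 0.10, Dhx58, a regulator of RNA sensing, by 0.78 ± 0.16, and Mx1 by 1.13 ± 0.29. Irf1, the transcription factor deleted in the mutants of the series, had 161, 154 and 143 CPM in untreated and 173, 223 and 228 CPM in treated colons (0.45 ± 0.11, 0.0449), and passed the test in 1 of the 6 fits without a mouse. Gbp2 and Ifi47, GTPases of cell-autonomous defence, had log2 FC of 1.19 and 1.54 with adjusted p of 0.0534 and 0.0622 and were not called.

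MHC class I genes had the highest share of upward calls among the lists with at least 5 genes tested. These genes cut, load and display peptides of the cell's own proteins to CD8+ T cells. Of 19 tested, 9 were upregulated (47.4%) and 0 downregulated, with a median log2 FC of 0.44. Psmb8, which was called, Psmb9 and Nlrc5 are also in the interferon list, so the lists are not separate results. The heavy chain H2-K1 had 673, 671 and 647 CPM in untreated and 863, 1269 and 1087 CPM in treated colons (0.69 ± 0.13, adjusted p = 0.0238), H2-D1 rose by 0.57 ± 0.11 and H2-T23 by 0.39 ± 0.08. The immunoproteasome subunits Psmb8 and Psmb10 rose by 1.11 ± 0.24 and 0.49 ± 0.10, the peptide transporter gene Tap1 by 1.14 ± 0.30, and Tapbp, Psme1 and Calr by 0.41, 0.38 and 0.49. Psmb8 had 31.7, 36.5 and 28.8 CPM in untreated and 41.7, 88.9 and 78.8 CPM in treated colons, so that treated colon 1 was just above the untreated range and colons 2 and 3 were more than 2 times above it. For B2m, the light chain shared by all class I molecules, treated colon 1 was the lowest of all 6 libraries, with 199, 204 and 199.7 CPM in untreated and 172, 405 and 291 CPM in treated colons, and the gene was not called (adjusted p = 0.190). After GC correction the median was 0.33 and 0 of the 19 genes were called. Reads of the polymorphic H2 genes can be shared between relatives, so their split is uncertain.

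MHC class II genes, which display antigen to CD4+ T cells, had the largest median of any list with at least 5 genes tested, 0.71, but 0 of 12 were called. Cd74, the chain that guards the class II groove, had 286, 275 and 174 CPM in untreated and 266, 716 and 459 CPM in treated colons (log2 FC 0.97 ± 0.32, adjusted p = 0.0867). Treated colon 1 lay within the untreated range, colon 2 was far above it, and untreated colon 3 was the lowest. H2-Aa, H2-Ab1, H2-Eb1 and H2-DMa had log2 FC of 0.93, 1.00, 0.86 and 1.02. With control set 2 the median was 1.12 and 8 of 12 were upregulated. Without treated colon 2 the median was 0.46, and after GC correction it was 0.64 with 0 called. Untreated colon 3 was also the lowest in the mean log2 deviation of the B cell list (-0.58) and of the lymphoid follicle list (-1.07). The 15 genes of the B and plasma cell list also held Pigr, the epithelial carrier of IgA, and Xbp1, so their sum is not a B cell level. That sum ranged over 4684 to 5095 CPM in untreated colons, highest in untreated colon 3, and 3960 to 4598 CPM in treated colons. The sum of the 6 follicle genes ranged over 25.03 to 111 CPM in untreated and 42.7 to 63.3 CPM in treated colons. Ms4a1, a B cell surface marker, had 17.6, 11.4 and 3.27 CPM in untreated and 4.92, 6.45 and 8.76 CPM in treated colons. The part of follicles in the class II values was not tested.

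Chemokine and cytokine genes changed in both directions. Of 27 tested, 5 were upregulated and 2 downregulated (18.5% and 7.41%), and the median log2 FC was 0.04. After GC correction 4 were upregulated and 0 downregulated. Besides Ppbp, Ccl8, a monocyte attractant of resident macrophages, had 3.73, 3.59 and 3.45 CPM in untreated and 7.11, 19.2 and 14.6 CPM in treated colons (1.92 ± 0.32, adjusted p = 0.0198) and Cxcl14 had 13.5, 11.5 and 12.1 CPM in untreated and 19.9, 22.9 and 30.0 CPM in treated colons (0.97 ± 0.16, 0.0194). Treated colon 2 was highest for Ccl8, and treated and untreated colons did not overlap for either gene. Ccl8 passed the limit of 5 CPM in at least 3 libraries through its treated colons alone, so its separation is not added evidence. The decoy receptor gene Tnfrsf11b (osteoprotegerin) rose by 1.05 ± 0.24 and Tnfrsf1b, a TNF receptor, by 0.55 ± 0.13. Il18, an epithelial cytokine of the interleukin-1 family, fell, with 137, 147 and 119 CPM in untreated and 107, 75.4 and 90.6 CPM in treated colons (-0.56 ± 0.13, 0.0379), and so did Il15, which sustains intraepithelial lymphocytes (-0.48 ± 0.12, 0.0408). Neither was called against control set 2 (-0.18 and -0.22). Il33, an alarmin, had -0.49 ± 0.18 (adjusted p = 0.119), and another 23 genes of the list were not analysed here.

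Complement genes were called upward in 5 of 20 (25%), and none downward, with a median of 0.32. Without treated colon 2 the median was 0.16, and after GC correction 0 were called. C3, the protein at which all complement pathways meet, had 175, 150.3 and 152 CPM in untreated and 246, 347 and 243 CPM in treated colons (0.81 ± 0.14, adjusted p = 0.0206), and C4b 144, 158 and 117 CPM in untreated and 189.7, 289.5 and 208 CPM in treated colons (0.72 ± 0.17, 0.0383). C1ra and C1rb, proteases that start the classical pathway, rose by 0.41 and 0.53 and C4a by 0.72, with C4a and C4b near-identical copies. The C1q chains had 0.44, 0.63 and 0.40 and were not called. Treated colon 2 was highest for every one of the complement genes named here.

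Myeloid genes had mostly positive log2 FC but few calls. Of 25 macrophage and dendritic cell genes, 22 had a positive log2 FC, 2 were upregulated (8.0%) and the median was 0.38. Mpeg1, a pore-forming protein of phagocytes, had 49.2, 54.7 and 41.7 CPM in untreated and 61.5, 94.7 and 75.5 CPM in treated colons (0.67 ± 0.16, adjusted p = 0.0385), and Fcgr3, an antibody receptor, rose by 0.53 ± 0.13. The receptor that defines the lineage, Csf1r, had 68.7, 81.1 and 63.5 CPM in untreated and 90.5, 95.1 and 88.8 CPM in treated colons (0.36 ± 0.10, 0.0543) and Emr1 (F4/80) 0.44 ± 0.15. After GC correction 0 were called, and with control set 2 the median was 0.67 and 13 of 22 were upregulated. Of the neutrophil list 5 genes were tested and 13, among them S100a8, S100a9, Ly6g and Mpo, were not analysed here. Ltf and Cd177, a surface protein of neutrophils, rose, Cd177 with 99.7, 103 and 128 CPM in untreated and 202, 236 and 194 CPM in treated colons (0.94 ± 0.12, 0.0122), whereas the neutrophil receptor genes Cxcr2, Csf3r and Itgb2 had log2 FC of -0.25, 0.03 and 0.46 and were not called. The list's median of 0.46 was 0.25 without treated colon 2, and Ltf and Cd177 were called after GC correction too. Whether neutrophils were the source of the Ltf and Cd177 RNA was not tested.

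Lymphocyte genes did not pass the test with control set 1 or after GC correction. None of 6 T cell genes was called, and Cd4, Cd8b1, Thy1 and Itgae had log2 FC of 0.46, -0.08, 0.34 and 0.20, while another 22 T cell genes were not analysed here. Against control set 2 Cd4 was called (0.95, adjusted p = 0.0491). None of the 15 genes of the B and plasma cell list, which also held Pigr, was called either, at a median of -0.17. With control set 2, however, all 14 tested had a positive log2 FC, the median was 0.71 and 3 were upregulated, and without untreated colon 1 the median was 0.23. Igj (Jchain in RefSeq), the chain that joins IgA dimers, had 581, 565 and 566 CPM in untreated and 352, 599 and 298 CPM in treated colons, a log2 FC of -0.45 ± 0.22 (adjusted p = 0.205), but 0.94 against control set 2 (adjusted p = 0.0258). Kit and Il5ra, the 2 tested genes of the mast cell and eosinophil list, had 0.31 and -0.28, without a call. Another 18 genes of that list, among them Mcpt1, Mcpt2, Cpa3 and Siglecf, were not analysed here. The 2 values therefore say little of these cells.

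Genes of wound-associated epithelium were upregulated in 10 of 31 (32.3%) and downregulated in 1, with a median log2 FC of 0.56 (0.40 after GC correction and 0.30 with control set 2). After GC correction 3 were still upregulated (Psca, Cst6 and Anxa1) and 0 downregulated. Beside Psca and Cst6 these included Ly6a (Sca-1), which marks regenerating crypts, with 83.0, 83.8 and 85.7 CPM in untreated and 115, 223 and 189 CPM in treated colons (1.06 ± 0.20, adjusted p = 0.0228). Anxa1, a mediator that ends inflammation and promotes closure, had 169, 196 and 173 CPM in untreated and 294, 431 and 232 CPM in treated colons (0.83 ± 0.20, 0.0381). Colon 2 was highest and the groups did not overlap in either. Hbegf, a growth factor for the EGF receptor, rose by 0.99 ± 0.18, Sprr1a by 1.17 ± 0.25, Krt7 by 0.62 ± 0.11 and the urokinase receptor gene Plaur by 0.85 ± 0.21. The member that fell was Wnt5a, a non-canonical Wnt of the stroma beneath wounds, with 18.2, 19.2 and 19.9 CPM in untreated and 11.9, 13.1 and 13.1 CPM in treated colons (-0.59 ± 0.11, 0.0215). Several of these genes are also made by squamous epithelium.

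Squamous epithelium genes were measured beside them. Of 21 tested, 6 were upregulated (28.6%) and 0 downregulated, and the median was 0.34 but -0.10 with control set 2 and 0.13 without treated colon 3. After GC correction 1 was called, Krt6a. Krt6a, a keratin of activated and wounded squamous epithelium, had 55.4, 57.2 and 71.9 CPM in untreated and 179.5, 324 and 158 CPM in treated colons (1.84 ± 0.25, adjusted p = 0.0144), and Krt14, a keratin of its basal layer, 63.5, 48.3 and 69.0 CPM in untreated and 134, 266 and 152 CPM in treated colons (1.61 ± 0.25, 0.0171). Krt5, the partner of Krt14, had 40.3, 25.5 and 48.5 CPM in untreated and 51.1, 123 and 102 CPM in treated colons (1.27 ± 0.32, 0.0432). Treated colons were above untreated ones for all of these keratins, by a narrow margin in Krt5, and Krt6a was upregulated against control set 2 as well (1.68, 0.0188). Markers of the same tissue that overlapped between the groups were Krt13 (log2 FC 0.63 ± 0.23, 0.115) and Dsg3 (0.34 ± 0.16, 0.199). With the mean level of Krt13, Krt4, Trp63 and Dsg3 as a covariate, which was added once the data had been seen, 6 genes of the whole table were upregulated and 30 downregulated. The skeletal muscle gene Ckm rose by 0.69 ± 0.09 (0.0140), and Acta1 had 0.62 ± 0.17 (0.0525). How much squamous tissue contributed to the wound-associated genes was not tested.

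**Figure D4:**
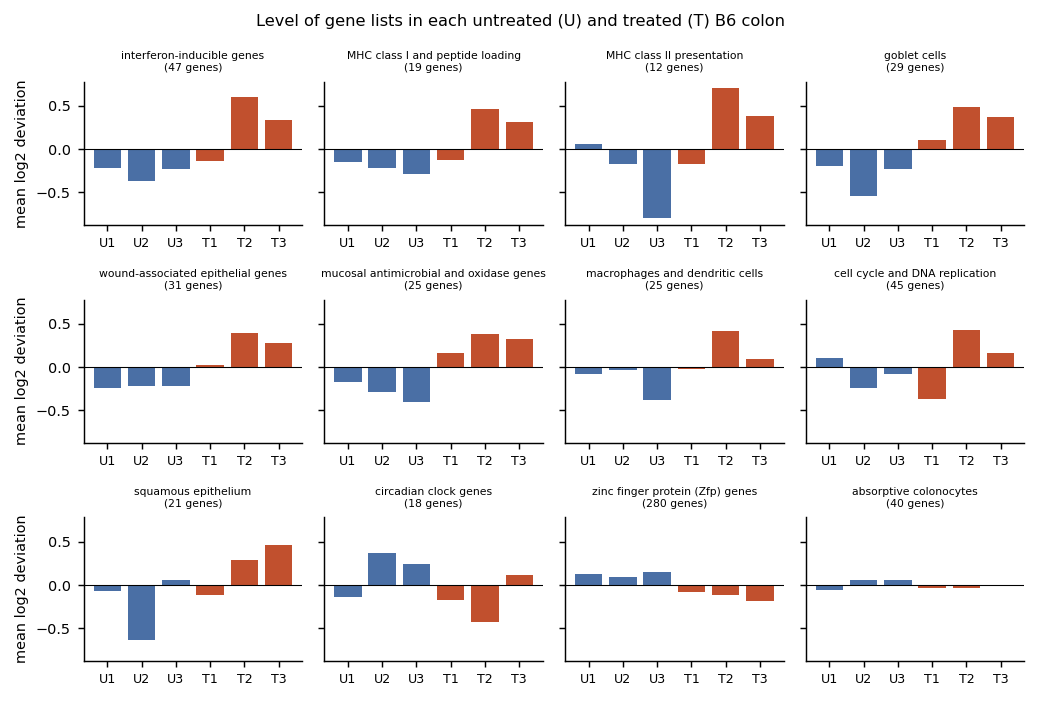
Mean log2 deviation of a list's genes from their mean over the 6 colons (y axis) in untreated colons U1 to U3 (blue) and treated colons T1 to T3 (red), for 12 lists. T2 is highest in 8 of the 12 panels, T1 lies near the untreated colons for the interferon and MHC lists, and U2 is lowest for goblet and squamous genes and U3 for MHC class II genes.

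The treated colons differed among themselves. Of the 499 upregulated genes, treated colon 2 was highest in 289 (57.9%), colon 3 in 145 (29.1%) and colon 1 in 65 (13.0%). Of the 571 downregulated genes colon 3 was lowest in 325 (56.9%), colon 1 in 126 (22.1%) and colon 2 in 120. The mean deviation of the interferon list was -0.14, 0.60 and 0.34 log2 units in treated and -0.22, -0.36 and -0.22 in untreated colons, that of the goblet list 0.11, 0.48 and 0.38 and -0.19, -0.54 and -0.23, and that of the wound-associated list 0.02, 0.39 and 0.28 and -0.24, -0.22 and -0.22. In these 3 lists no treated colon fell into the untreated range, but in the interferon list colon 1 lay close to it.

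Absorptive colonocyte genes changed in both directions, 6 of 40 down and 3 up (15% and 7.5%), with a median log2 FC of -0.04. Car1, the carbonic anhydrase of colon surface cells, had 626, 772 and 811 CPM in untreated and 321, 315 and 464 CPM in treated colons (-1.01 ± 0.17, adjusted p = 0.0194). Cftr, the chloride channel of crypt cells, had 197, 199.8 and 225 CPM in untreated and 125, 123 and 105 CPM in treated colons (-0.81 ± 0.10, 0.0122), and Slc26a3 956, 1217 and 1309 CPM in untreated and 896, 577 and 743 CPM in treated colons (-0.65 ± 0.17, 0.0499). Each was below the untreated range in all 3 treated colons, and Slc26a3 was no longer called against control set 2 (-0.27, 0.428). Slc6a14, an amino acid transporter, and Dpp4, a brush border peptidase, fell by 0.78 ± 0.15 and 0.41 ± 0.08. The 3 that rose were Clca6 (Clca4a in RefSeq), with 60.9, 71.5 and 69.3 CPM in untreated and 173, 408 and 149 CPM in treated colons (1.85 ± 0.34, 0.0215), Ceacam1, an adhesion molecule and bacterial receptor (0.71 ± 0.14), and Emp1, a membrane protein of surface epithelium (1.12 ± 0.23). After GC correction Lrrc19 and Cftr were still downregulated (-0.60 and -0.55, adjusted p = 0.0352 for both) and all 3 that rose were still upregulated.

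Xenobiotic metabolism enzymes were called downward more often than upward, with 9 of 84 downregulated (10.7%, against 4.52% of all genes) and 3 upregulated (3.57%), and a median of -0.13, which turned to 0.09 with control set 2 and was -0.035 without treated colon 2. After GC correction 4 were downregulated and 1 upregulated. Several members of the Cyp2c family, which oxidise drugs and fatty acids, fell. Cyp2c68 had 156, 239.8 and 177 CPM in untreated and 83.9, 68.0 and 72.6 CPM in treated colons (-1.35 ± 0.16, adjusted p = 0.0122), Cyp2c40 fell by 1.12 ± 0.15, Cyp2c67 by 1.05 ± 0.20 and Cyp2c69 by 1.06 ± 0.23, whereas Cyp2c55 had 0.70 ± 0.24 (adjusted p = 0.0942) and -0.40 against control set 2. Cyp2c68 and Cyp2c40 also passed after GC correction (-1.12 and -0.90). These genes are close copies, so the split of reads between them is uncertain. Ces1f, a carboxylesterase, fell by 1.02 ± 0.14 but had 0.35 against control set 2 (adjusted p = 0.246). In contrast Aldh1a3, which makes retinoic acid from retinal, had 7.85, 10.7 and 8.31 CPM in untreated and 31.5, 48.4 and 25.1 CPM in treated colons (1.97 ± 0.24, 0.0122), and it was upregulated after GC correction (1.95) and against control set 2 (1.67) as well. Mt1, a metal-binding metallothionein, fell, with 101, 103 and 69.4 CPM in untreated and 53.5, 43.0 and 55.8 CPM in treated colons (-0.85 ± 0.16, 0.0228), the only call among 9 metallothionein and zinc transporter genes.

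Other epithelial lineages showed few calls. Among 17 enteroendocrine and tuft cell genes 2 rose (11.8%), among them the tuft cell gene Avil (0.67 ± 0.15), and the enteroendocrine granule genes Chga and Chgb had 0.18 and 0.06. After GC correction 0 of these were called, and without treated colon 3 the list's median turned from 0.16 to -0.06. Among 29 stem cell and Wnt genes Ephb3, a receptor that positions cells along the crypt, rose (0.38 ± 0.09) and Wnt5a fell. The stem cell markers Lgr5 and Ascl2 had -0.34 ± 0.09 (adjusted p = 0.0513) and -0.26 ± 0.27 (0.552). Lgr5 was called against control set 2 (-0.53, 0.0188), and 0 genes of the list were called after GC correction. Of 20 tight junction genes 2 rose, Cldn23 (0.35 ± 0.08) and Cldn15, which forms cation pores, with 42.6, 41.7 and 46.4 CPM in untreated and 69.9, 83.8 and 75.4 CPM in treated colons (0.81 ± 0.09, 0.0122). Cldn15 was called in all 6 fits without a mouse, after GC correction (0.69) and against control set 2 (0.77).

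Proliferation and damage genes were not called. None of 45 cell cycle genes passed, with a median log2 FC of 0.22 but -0.22 against control set 2, where 3 were downregulated, and 0.05 without treated colon 2. Mki67 and Top2a, markers of dividing cells, had -0.26 ± 0.35 (adjusted p = 0.645) and 0.15 ± 0.30 (0.753), and Top2a had -0.47 against control set 2. The list was lowest in treated colon 1 and highest in treated colon 2 among all 6 libraries, with mean deviations of -0.37, 0.43 and 0.17 log2 units in treated and 0.10, -0.25 and -0.08 in untreated colons. None of 30 p53 and alkylation repair genes passed (median -0.01), with Cdkn1a and Mdm2, targets of p53, at -0.17 ± 0.11 and -0.16 ± 0.08.

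Immediate early and stress genes were called upward in part. Of 22 immediate early genes 4 rose (18.2%), namely Socs3, the brake on STAT3 signalling, with 8.33, 10.4 and 8.05 CPM in untreated and 13.4, 26.2 and 18.4 CPM in treated colons (1.11 ± 0.23, adjusted p = 0.0280), Jun (0.53 ± 0.11), Ier3 (0.71 ± 0.13) and Gadd45g (0.98 ± 0.19). Fos and Egr1, the best known of these genes, had 0.34 ± 0.29 and 0.49 ± 0.24 with adjusted p of 0.459 and 0.207. None of the immediate early genes was called after GC correction. Of 24 heat shock and chaperone genes 4 rose (16.7%), the Hsp70 genes Hspa1a and Hspa1b (0.79 ± 0.12 and 0.76 ± 0.13), Ddit3 and Hyou1. After GC correction 0 were called, and with control set 2 the list's median turned from 0.18 to -0.13, with 0 up- and 4 downregulated. Hspa1a had 67.6, 61.2 and 70.0 CPM in untreated and 102, 136 and 107 CPM in treated colons, but the sign turned against control set 2 (-0.44, adjusted p = 0.0744), and Hspa1b, a near-identical copy, did the same (-0.47).

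Clock genes changed in both directions. The clock is a loop in which Arntl, Clock and Npas2 drive their own repressors, the Per, Cry and Nr1d genes, so that the drivers and the repressors peak at different times of day. Of 18 tested, Npas2 and Cry1 were upregulated and Nr1d2 and Per3 downregulated, and the median was -0.47. After GC correction 0 were called, and with control set 2 the median turned to 0.25, 13 of 16 genes having a positive log2 FC. Nr1d2 had 127, 179.5 and 189.9 CPM in untreated and 71.6, 62.4 and 103 CPM in treated colons (-1.07 ± 0.20, adjusted p = 0.0227) and Npas2 21.3, 13.5 and 12.6 CPM in untreated and 37.2, 35.3 and 22.98 CPM in treated colons (1.01 ± 0.23, 0.0368). Arntl had 42.8, 25.7 and 24.5 CPM in untreated and 85.3, 75.6 and 36.9 CPM in treated colons (1.09 ± 0.31, 0.0601), with treated colon 3 within the untreated range. Treated colon 3 was the nearest of the treated colons to the untreated ones in all these genes. Against control set 2 the same genes had -0.26, 0.18 and 0.06 and Per3 turned to 0.33 (adjusted p = 0.338). The hour at which the mice were killed was not given, so treatment and time of day cannot be told apart.

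In the wall, matrix and vessel genes were called upward in part, and muscle and nerve genes downward in few. Of 39 collagens and matrix-remodelling enzymes 5 rose (12.8%), with a median of 0.18 that was 0.11 without treated colon 2. These were Col18a1, a collagen of basement membranes, with 72.5, 68.3 and 67.3 CPM in untreated and 102, 144 and 105 CPM in treated colons (0.75 ± 0.13, adjusted p = 0.0200), Col4a2 (0.43 ± 0.11), the laminin chain gene Lama1 (0.83 ± 0.18) and the proteases Mmp2 (0.43 ± 0.10) and Mmp11 (0.82 ± 0.17). The fibrillar collagens Col1a1 and Col3a1 had 0.07 ± 0.14 and 0.14 ± 0.12, without a call. Of 14 endothelial genes 3 rose (21.4%), Plvap, Vwf and Eng (0.47, 0.45 and 0.58), and the pan-endothelial Pecam1 and Cdh5 had 0.24 and 0.37. Of 25 smooth muscle genes Cald1 fell (-0.48 ± 0.11), while Acta2 and Myh11 had -0.0009 and 0.04 and the list's median was -0.0009. Of 17 neuron and glia genes 2 fell (11.8%), among them Snap25, of nerve endings (-0.60 ± 0.12), 16 had a negative log2 FC and the median was -0.22, against 0.20 with control set 2 and -0.08 without untreated colon 2. After GC correction 0 genes were called in the matrix, endothelial, smooth muscle and neuron lists.

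The most numerous downregulated group was that of zinc finger protein genes, of which 68 of 280 fell (24.3%, against 4.52% of all genes) and 1 rose. Most encode KRAB-type transcriptional repressors that come in clusters of close copies. Zfp947 had 11.8, 11.3 and 14.2 CPM in untreated and 4.65, 6.19 and 5.72 CPM in treated colons (-1.17 ± 0.17, adjusted p = 0.0157), Zfp808 14.6, 13.0 and 20.5 CPM in untreated and 6.15, 6.81 and 6.65 CPM in treated colons (-1.30 ± 0.19, 0.0157) and Zfp397 98.7, 90.1 and 96.8 CPM in untreated and 68.1, 65.9 and 60.0 CPM in treated colons (-0.56 ± 0.08, 0.0157). All 3 treated colons were below all untreated ones in each. The list's median log2 FC was -0.22 without and -0.11 with GC correction, and after the correction 0 were called. These genes are poor in GC, with a median of 44.9% against 50.0% over all genes. With control set 2, 79 fell and 11 rose, at a median of -0.22. Long nuclear RNAs behaved alike, with 3 of 13 downregulated (23.1%), among them Malat1 with 17290, 16010 and 17400 CPM in untreated and 12780, 12770 and 11330 CPM in treated colons (-0.46 ± 0.09, 0.0247) and Kcnq1ot1 (-0.64 ± 0.09), and 0 called after the correction.

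GC content tracked the calls over the whole table. Of the 195 genes under 38% GC, 44.6% were downregulated and 0 upregulated, and of the 1258 genes at 58% or more, 0.24% were downregulated and 8.74% upregulated. Median GC was 55.2% among upregulated and 40.9% among downregulated genes. The slope was found in all 3 treated libraries, was flattest in treated colon 2, and was not shared by treated Irf1-/- colons, whose slopes were -0.02, -0.08 and 0.03. For this slope, treatment cannot be told apart from library preparation. Genes of the interferon list had a median of 46.7% GC, below that of all genes, and after the correction 46 of 47 had a positive log2 FC (42 before it) but 2 were called (10 before it).

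**Figure D5:**
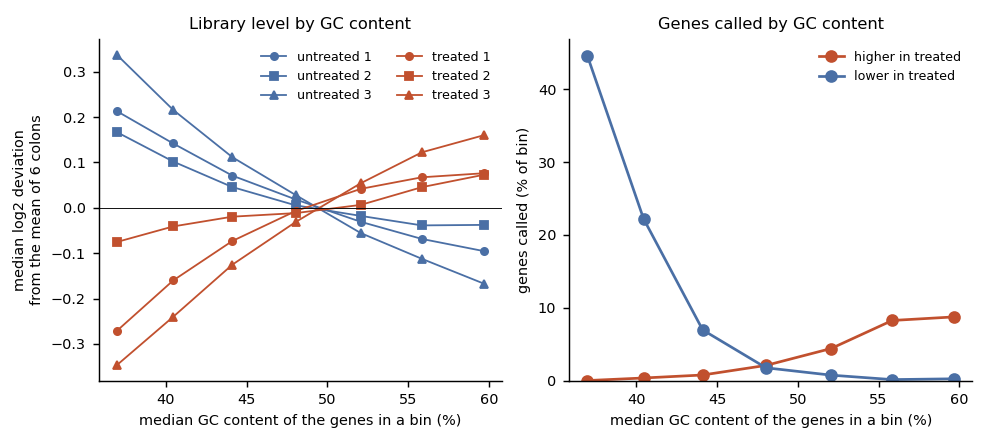
Left, median log2 deviation of a library from the mean of the 6 colons (y axis) for genes binned by GC content (x axis, %), with untreated libraries in blue and treated in red. Right, share of the genes of a bin that were upregulated (red) or downregulated (blue) at an adjusted p under 0.05 (y axis, % of the bin), with 44.6% downregulated in the lowest bin.

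The response of B6 colons was set against that of the Irf1-/- mutants, which lack the transcription factor gene Irf1 and carry the same treatment, in a fit of 12 libraries with a genotype by treatment term. Of 12483 genes, 3 (0.024%) had a higher and 3 (0.024%) a lower response in B6 at an adjusted p under 0.05. Akap5, a scaffold for protein kinase A, had 26.0, 25.2 and 27.5 CPM in untreated and 16.8, 18.0 and 19.1 CPM in treated colons, against 9.29, 9.61 and 11.3 CPM in untreated and 20.8, 28.0 and 24.7 CPM in treated Irf1-/- colons, a difference of the log2 FC of -1.83 (adjusted p = 0.000675). Its levels fell in B6 and rose in Irf1-/- colons, but with control set 2 the B6 response of Akap5 turned to 1.09 (adjusted p = 0.00806). Irf7, Muc2, Ltf, Duox2 and Krt6a, which rose in B6 colons, did not pass this test, with adjusted p of 0.310 for Irf7, 0.112 for Muc2, 0.994 for Ltf, 0.486 for Duox2 and 0.989 for Krt6a. A p above the threshold does not show that the responses are equal. With control set 2 in this fit edgeR's quasi-likelihood test called 0 genes, with 1854 at an unadjusted p under 0.05, and with control set 1 DESeq2 called 144 and 258.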

How the data were processed

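Total RNA of distal colons was depleted of ribosomal RNA and sequenced as stranded paired libraries, 3 mice per group, and labels number the mice of a group separately. The submitters' processing notes name TopHat2 2.0.9, Bowtie 1.0.0, featureCounts and edgeR with the build mm9. The authors kept genes with 5 CPM in at least 3 libraries of a table. The strand setting of the counting was not given in the sources used here. The deposited values used here were these raw read counts. The authors' CPM columns of the same libraries (36) and their own fold changes and p-values were not used.

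Counts of the 6 B6 libraries were scaled by TMM and tested with edgeR 4.0.16 (R 4.3.3, quasi-likelihood, Benjamini-Hochberg adjustment over 12643 genes). The analysis was checked on simulated counts with known changes. Depth was 22407162 to 22828066 reads per library, and all pairs within a group differed by more than sampling noise. The p-values set the difference of the groups against the spread between these mice within a group. They do not cover the difference between control sets. GC correction subtracted from each library a smooth curve (lowess span 0.3) of its log2 deviation on GC content, taken from GENCODE transcripts for 12547 genes. Alternatives were edgeR's exact test, DESeq2 1.42.0, voom of limma 3.58.1, RLE size factors, a minimum of 10 CPM, a replicate block, omission of 1 mouse, other control sets, Xist as covariate and, added after seeing the data, squamous keratin level as covariate. Named genes were those past the study's threshold and up to 6 per list. To these came the 12 largest changes in each direction, among called genes whose groups did not overlap. The 5 strongest per direction in the comparison of genotypes and further list members, given for their role, completed them. Lists, their members and settings were chosen with earlier results of these data known. The goblet list's Clca1 was matched to its older symbol Clca3 after values were seen. Symbols are those of the table, with current ones from RefSeq. Promoters came from RefSeq (GRCm38.p6) by symbol. Coordinates of other genes were not used, as no mm9 genome was at hand. Values of some genes of the lists are not reported here.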

Additional observations from a re-analysis of the deposited data

Results flagged for a closer look

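For 6 genes the response to AOM/DSS differed between B6 and Irf1-/- colons in the test of genotype by treatment (edgeR's quasi-likelihood test, adjusted p under 0.05). The difference of the log2 FC, B6 minus Irf1-/-, was -1.83 for Akap5 (adjusted p = 0.000675) and -1.60 for Lrrc17, a leucine-rich-repeat protein (0.00612). Both had a negative log2 FC in B6 colons (-0.55 and -0.42), which turned to 1.09 and 0.92 against control set 2. OTTMUSG00000016609 differed by -1.17 (0.0352), with -1.39 in B6 colons and -1.30 against control set 2. The kallikrein genes Klk1b11, Klk1b4 and Klk1b5 differed by 1.37, 0.94 and 0.85 (adjusted p = 0.0198, 0.0402 and 0.0467). They are near-identical copies, so the split of their reads is uncertain and they are not separate evidence. With control set 2 in this test 0 genes passed, with 1854 at an unadjusted p under 0.05.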

How the results depend on the processing

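Counts of up- and downregulated genes at an adjusted p under 0.05 (499 and 571) kept within 1.5 times under RLE size factors, limma voom and a minimum of 10 CPM. They were 823 and 988 with DESeq2, 862 and 992 with edgeR's exact test, 901 and 939 with control set 2, 1123 and 1264 with both control sets, 1007 and 1345 with all 15 libraries in 1 fit, 72 and 37 with GC correction, 10 and 6 with Xist as covariate, and 6 and 30 with squamous keratin level as covariate. At the study's threshold (4 and 2) the same settings gave 227 and 214, 245 and 215, 22 and 49, 99 and 143, 113 and 184, and 0 and 0 for GC correction and both covariates, while limma voom gave 0 and 0 and the minimum of 10 CPM 14 and 15. Leaving out 1 mouse gave 9 to 850 and 7 to 737 genes, and 0 to 111 and 0 to 41 at the study's threshold. In the comparison of B6 with Irf1-/- responses (3 and 3) these fits gave 0 to 51 and 2 to 220, DESeq2 144 and 258, control set 2 0 and 0, GC correction 7 and 4, Xist as covariate 3 and 5 and squamous keratin level 0 and 2. edgeR's exact test, which compares 2 groups, was not run there.

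With a replicate block, 32 genes were up- and 29 downregulated (3 and 2 at the study's threshold), and 10 and 4 (2 and 0) with GC correction added. In the comparison of genotypes the block left 0 and 2 genes, also with GC correction. Same-numbered mice had correlations of -0.13, -0.11 and -0.11 of their deviations, and no mouse correlated best with its own number. The labels do not say whether the numbers pair the mice, and correlations with 3 mice per group cannot settle it.

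Signs turned with control set 2 for Csf3r (-0.25), Igj (0.94), Top2a (-0.47), E2f8 (-0.20), Cdc45 (-0.11), Cdkn1a (0.19), Hspa1a (-0.44), Hspa1b (-0.47), Per3 (0.33), Cyp2c55 (-0.40), Ces1f (0.35), Mrpl10 (-0.034), Neat1 (0.12), Acta2 (0.18), Uchl1 (0.33), Syt1 (0.20), Fabp4 (-0.21), Cr2 (0.25), Ms4a1 (0.54), Klk1b11 (-0.11), Klk1b4 (-0.31), Klk1b5 (-0.16), A430033K04Rik (-0.52), Akap5 (1.09) and Lrrc17 (0.92). With both sets they turned for Csf3r (-0.12), Igj (0.080), Top2a (-0.19), Acta2 (0.084), Fabp4 (-0.095), Klk1b4 (-0.0010), A430033K04Rik (-0.27), Akap5 (0.051) and Lrrc17 (0.10), with GC correction for Csf3r (-0.083), Cd28 (0.075), Cd79a (-0.056), Chga (-0.016), Chgb (-0.058), Cldn7 (-0.011), Rpl10a (-0.065), Rpl22l1 (0.031), Myh11 (-0.056) and Col1a1 (-0.12), and with the replicate block added to it for Csf3r (-0.089), Cd28 (0.099), Chga (-0.049), Chgb (-0.066), Cldn7 (-0.011), Rpl10a (-0.070), Rpl22l1 (0.031), Myh11 (-0.058), Col1a1 (-0.14) and Cr2 (0.0038). The minimum of 10 CPM turned Acta2 (0.0084), Xist as covariate Csf3r (-0.094), Acta2 (0.024), Col3a1 (-0.0080) and A430033K04Rik (-0.0023) and squamous keratin level Cd28 (0.10), Ascl2 (0.0096), Top2a (-0.36), Acta2 (0.029), Col1a1 (-0.087), Uchl1 (0.049) and Cxcl13 (-0.074). Leaving out 1 mouse turned Csf3r (-0.046 to 0.12), Cd8b1 (-0.14 to 0.033), Cd28 (-0.39 to 0.052), Cd79a (-0.36 to 0.80), Chga (-0.10 to 0.34), Chgb (-0.069 to 0.20), Mki67 (-0.64 to 0.070), Top2a (-0.16 to 0.46), Rpl10a (-0.027 to 0.16), Zfp1 (-0.14 to 0.013), Acta2 (-0.037 to 0.042), Myh11 (-0.013 to 0.077), Col1a1 (-0.090 to 0.22), Col3a1 (-0.011 to 0.22), Fabp4 (-0.093 to 0.18), Cr2 (-0.99 to 0.35), Cxcl13 (-0.19 to 1.00) and A430033K04Rik (-0.033 to 0.13). The cause was not tested. Of the 94 turned values 81 were called in neither fit. Of the other values of named genes 2835 kept their sign and side of the threshold, 863 lost and 176 gained a call.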

Other observations

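Lists of ribosomal protein and respiratory chain genes had medians near that of all genes (0.01), and the median of the cholesterol list was further from it. None of 78 cytosolic and 76 mitochondrial ribosomal protein genes was called, with median log2 FC of 0.07 and 0.01. Of 83 genes of the respiratory chain Uqcrb and Ndufaf4, an assembly factor, fell (-0.34 ± 0.08 and -0.71 ± 0.13), and the median was -0.01. Of 23 genes of cholesterol synthesis and uptake Pmvk, a kinase of the mevalonate pathway, rose (0.45 ± 0.11), and 19 had a positive log2 FC, with a median of 0.19.

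Of the 1070 called genes 192 were in a list and 878 in none. Among those in none Calcb, a neuropeptide gene, had 1.97, 2.41 and 1.11 CPM in untreated and 10.1, 25.1 and 8.01 CPM in treated colons (2.97 ± 0.47, adjusted p = 0.0185), and Dhrs9 had 2.98, 2.72 and 3.54 CPM in untreated and 7.20, 39.9 and 11.4 CPM in treated colons (2.66 ± 0.58, 0.0322). Pcdh17 was the lowest in treated colon 2, with 9.48, 6.45 and 10.6 CPM in treated colons. All treated colons were above all untreated ones for Calcb and Dhrs9, as the rule for the largest changes required. Both had 5 CPM or more in treated colons only.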
